A study of Mus musculus with 6 samples.

Results

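The lysosome was followed here through 30 genes, measured in kidneys of wild-type mice and of mice labelled Hspa8 knockout. The genes encode membrane proteins, peptidases, glycosidases and lipid hydrolases of the organelle, progranulin, and the transcription factors TFEB and TFE3. They were chosen by symbol from a table of 34714 genes. All 30 were found, and all 30 passed the filter on low values, a mean of at least 1 FPKM over the 6 libraries, that left 12174 genes to test. The unit, FPKM, counts sequenced fragments relative to transcript length and library total, so levels of different genes can be compared per length. Each group held 3 kidney samples from mice 8 weeks old that ate normal chow, according to their labels. The wild-type samples carry C57 in their titles. The knockout samples carry HSPA8KO and no strain. The animals listed for the study were Hspa8flox/flox mice (C57BL/6J-Hspa8em1flox/Cya), Cdh16-Cre mice, C57BL/6J mice and Pkr-/- mice (C57BL/6JGpt-Eif2ak2em4Cd2637/Gpt). The labels do not say which of these alleles each kidney carried, so strain, Cre and the floxed allele cannot be told apart from the knockout. Cdh16 is active in tubule epithelium, and a Cre under its promoter leaves the gene in the other cells of the kidney. Whether the 3 samples of a group are 3 animals is not in the labels. A p-value here therefore reflects sample-to-sample spread only, and that spread could be technical.

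Lysosomes are acid compartments that break down what the cell takes up by endocytosis and what autophagy delivers from inside it. In the kidney the proximal tubule reabsorbs filtered protein and degrades it there, and defects of single lysosomal proteins cause storage diseases that reach the kidney, such as Fabry disease (GLA) and cystinosis. The deleted chaperone has a task at this membrane. HSC70, the product of Hspa8, carries selected cytosolic proteins to LAMP-2A, the splice form of LAMP2 that acts as the receptor of chaperone-mediated autophagy, and a form of HSC70 inside the lysosome draws them in. TFEB and TFE3, once they leave the lysosome surface for the nucleus, bind E-box sequences in the promoters of many lysosomal genes.

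Lamp2 makes 3 coding transcripts that share their first 370 residues and differ in the last coding exon, and only one of them is the receptor that HSC70 feeds. The 39 bases at the end of each coding sequence, stop codon included, are shown because FPKM per gene add these transcripts together. Capitals mark bases that are not the same in all 3. The sequences come from GENCODE M21 (GRCm38), minus strand of chromosome X, and the names LAMP-2A, LAMP-2B and LAMP-2C were given from the last residues of each tail.
LAMP-2A, chrX:38405432-38405470: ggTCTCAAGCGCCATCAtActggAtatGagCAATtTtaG
LAMP-2B, chrX:38421712-38421750: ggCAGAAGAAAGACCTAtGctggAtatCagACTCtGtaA
LAMP-2C, chrX:38402139-38402177: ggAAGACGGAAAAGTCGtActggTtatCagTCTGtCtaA
Of the 39 bases 24 differ among the transcripts. The Lamp2 values below therefore give the gene and not the receptor form.

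Promoter sequences show which members carry the letters that TFEB and TFE3 are known to read. RefSeq windows (GRCm38.p6) from 250 bases before to 50 bases after a start site were found for 27 of the 30 members, and Ctsb, Ctsh and Asah1 had none. The E-box CACGTG was in a window of 10 of the 27 members (37.0%), against 11.9% of the tested genes with a window and 8.09% of all genes with one. The longer TCACGTG, on either strand and always containing the E-box, was in 9 members (33.3%, against 7.23% of tested genes). The 8 letters TCACGTGA, the core of the CLEAR element, which contain both shorter motifs, were in 4 members (14.8%, against 2.26% of tested genes). Those 4 and Lamp1, the membrane protein most used as a lysosome marker, are shown as 30 bases around the match, written 5′ to 3′ on the strand of the gene, with the match in capitals.
Mcoln1, chr8:3500462-3500491, plus strand: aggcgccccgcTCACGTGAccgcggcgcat
Ctsa, chr2:164833749-164833778, plus strand: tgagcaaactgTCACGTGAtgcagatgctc
Ctsd, chr7:142387908-142387937, minus strand: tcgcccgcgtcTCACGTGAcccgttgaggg
Gla, chrX:134601215-134601244, minus strand: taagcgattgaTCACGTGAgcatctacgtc
Lamp1, chr8:13159088-13159117, plus strand: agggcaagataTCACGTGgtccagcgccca
Counted from the start site, the match began at -46 in Mcoln1, -13 in Ctsa (from an alternative start site), -99 in Ctsd, -228 in Gla and -62 in Lamp1. The others with TCACGTG were Lgmn, Gaa, Glb1 and Naglu, and Ctsl had the E-box alone. A match describes the sequence and shows no binding.

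Hspa8 was lower in all 3 libraries labelled knockout, with wild-type values of 1058, 1092 and 1318 FPKM against knockout values of 650.1, 699 and 781 FPKM in the order of replicates 1, 2 and 3, and with a log2 fold change of -0.70 (exact two-sided permutation test p = 0.1, the smallest that 3 against 3 can give; limma adjusted p = 0.866). The values below thus come from tissue that still held Hspa8 RNA. Library sums ran from 381586 to 417123 FPKM, and the number of reads behind them is unknown. All 10 proximal tubule markers and all 8 markers of other nephron segments passed the filter, with Umod at 762 to 1272 FPKM. Wild-type replicate 3 and knockout replicate 2 deviated alike, with a correlation of 0.55 between their deviations from their group means over 12174 genes. Pearson r of log2 values within the wild-type group was 0.9801 and 0.9895 for replicate 3 and 0.9932 for the other pair. Within the knockout group it was 0.9883 and 0.9867 for replicate 2 and 0.9905 for the other pair. The lowest r of knockout replicate 2 with any library was 0.9861, against 0.9791 for knockout replicate 3. The 2 libraries that deviated alike are called the outlying libraries below, which is a label only.

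None of the 30 lysosome genes passed the test between knockout and wild-type kidneys, and their estimates lay among those of all genes. Limma, fitted to all tested genes, called 0 members at an adjusted p of 0.05 in either direction, against 0% of all tested genes higher and 0% lower, and the smallest adjusted p of a member was 0.995. At an unadjusted p under 0.05 it also called 0 of 30, where 0.953% of all tested genes were higher and 4.21% lower. The 3 knockout values lay below all 3 wild-type values in 2 members, Gaa and Tfe3, and above them in 0, against 8.57% and 2.01% of all tested genes, so that 2 of 30 is close to the background. The log2 fold changes, taken on log2(FPKM + 1), ran from -0.18 (Hexa) to 0.19 (Gusb), with a median of -0.048 beside -0.0399 for all tested genes. Of the members 8 were above 0 and 22 below, and of all tested genes 35.1% were above. With library sums equalised the members split 14 above and 16 below and all genes 49.8% above, and with library medians equalised 16 above and 14 below and 53.5%. With quantiles equalised they split 10 above and 20 below, with 50.8% of all genes above. Leaving out wild-type replicate 3 gave 4 above and 26 below, and leaving out knockout replicate 2 as well gave 3 above and 27 below, with 33.4% and 27.8% of all genes above 0.

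The intervals show what sizes of change these samples could still hold. All 30 limma intervals of 95% included 0, and 28 lay within 0.5 on the log2 scale on either side. The exceptions were Lipa (-0.35 to 0.70) and Gusb (-0.19 to 0.57). As deposited, every member had a log2 fold change under 0.2 in size, as had 86.8% of all tested genes. So had 93.0% of the tenth of genes with the highest levels, to which 17 of the members belong. This bound did not hold under every scaling. Gusb was at 0.24 with library sums, 0.25 with library medians and 0.23 with quantiles equalised. For 29 of the 30 members the difference between the groups was smaller than the wider of the 2 groups' ranges, and for 21 it was smaller than the range of the wild-type samples alone. Single libraries moved these estimates. In 28 of the 30 members, all but Gaa and Tfe3, the value changed by over 1.5 times or turned sign when 1 library or both outlying libraries were left out. At an unadjusted p under 0.05, limma then called Asah1 without knockout replicate 2 (-0.25) and without both outlying libraries (-0.28), and Gusb without wild-type replicate 1 (0.39), with adjusted p of 0.668, 0.716 and 0.814. Each was 1 of 30 members in its fit, beside 877, 757 and 711 of the 12174 tested genes in that order. The plot of fold changes with their intervals sets the members against the middle 50% of all genes.

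**Figure D1:**
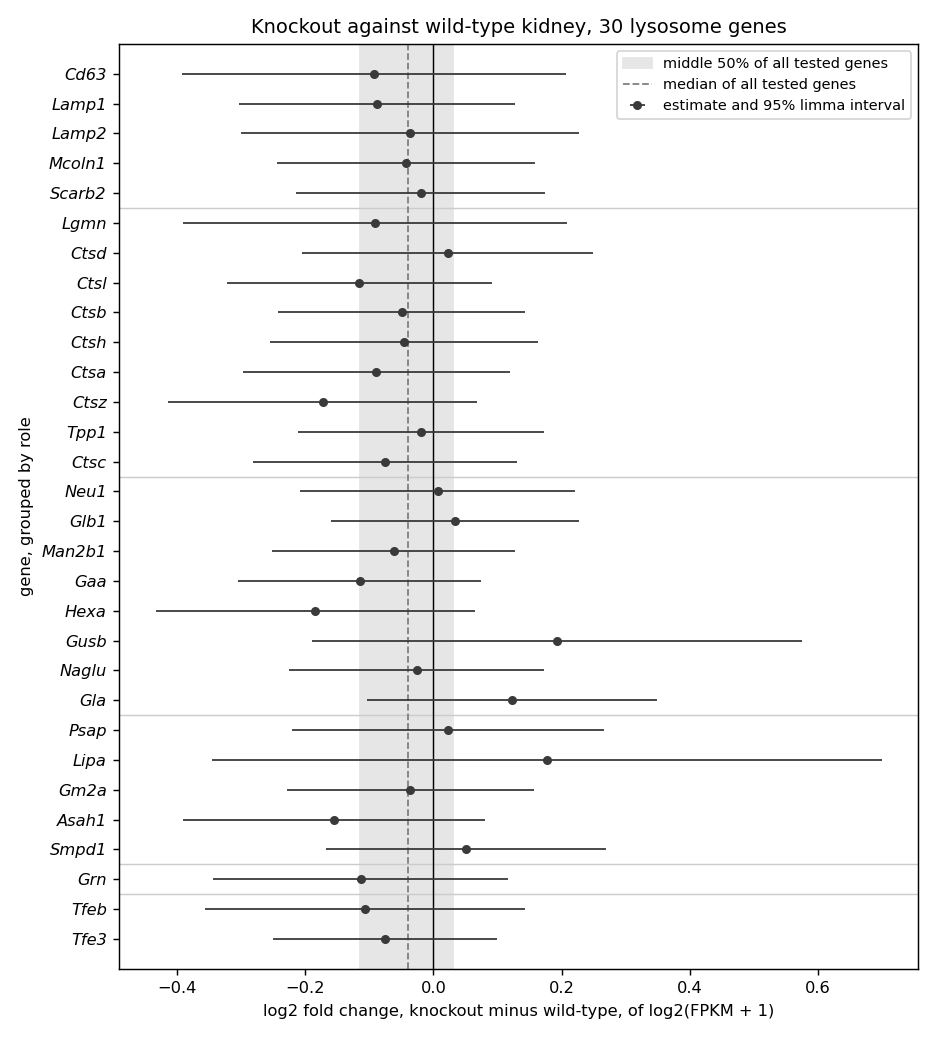
Log2 fold change of each of the 30 genes (x axis, knockout minus wild-type, log2(FPKM + 1)) with its 95% limma interval, grouped by role on the y axis, from 3 libraries a group. The shaded band holds the middle 50% of the 12174 tested genes (-0.12 to 0.0298), and all 30 intervals cross 0.

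The members spanned a wide range of levels, and the spread between samples was small beside it. Cd63 stood highest with a mean over the 6 libraries of 733 FPKM, followed by Psap (544 FPKM), Lamp1 (485 FPKM), Lamp2 (328 FPKM), Lgmn (274 FPKM) and Ctsd (259 FPKM). Ctsc (3.19 FPKM) and Gla (1.71 FPKM) stood lowest, below both transcription factors. Of the 29 pairs of neighbours in this order 19 had overlapping values over the 6 libraries. The 10 that did not overlap include Cd63 above Psap, Lamp1 above Lamp2, Ctsd above Ctsl, and Ctsc above Gla, while Psap and Lamp1, Lamp2 and Lgmn, and Lgmn and Ctsd did overlap. Together the 30 genes held 0.914% to 1.01% of a library's FPKM sum.

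**Figure D2:**
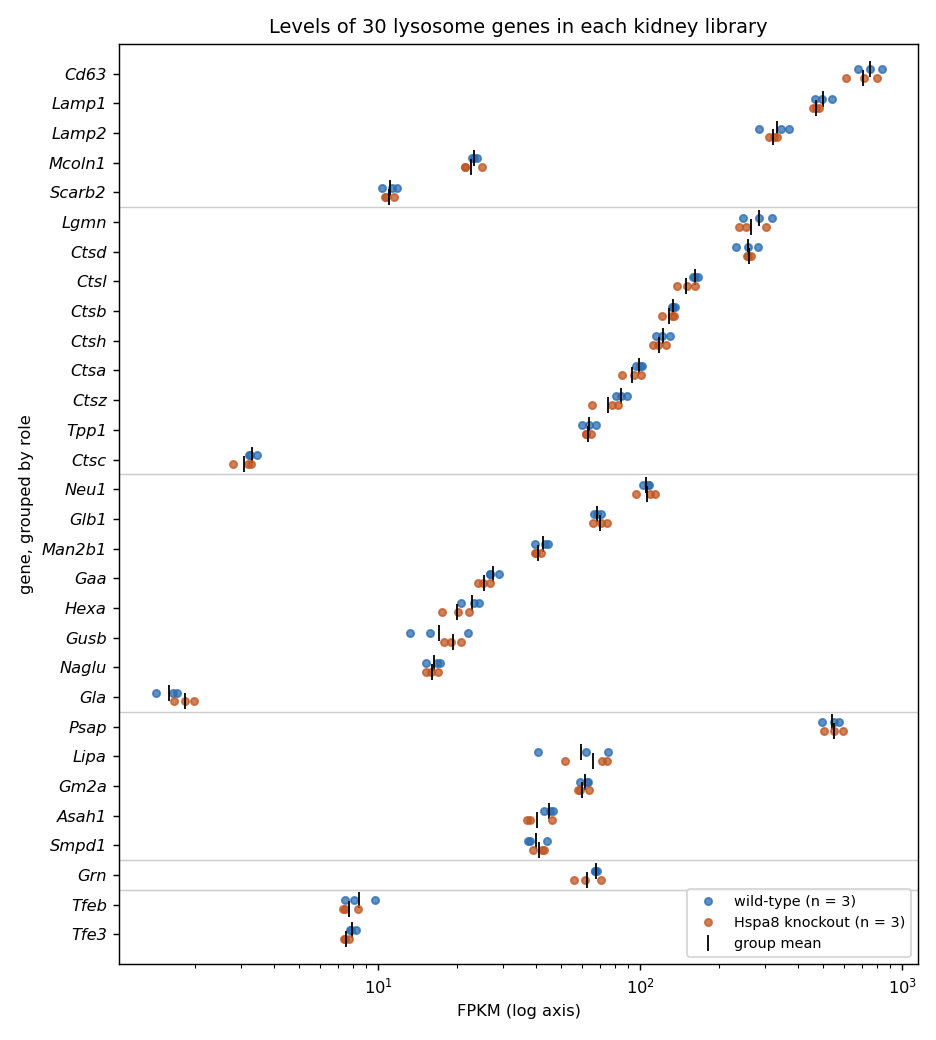
FPKM of each gene in each of the 6 libraries (x axis, log scale), grouped by role on the y axis, with 1 point a library and a bar at each group mean. Levels run from 1.71 (Gla) to 733 FPKM (Cd63) as means over all libraries, and the groups overlap for 28 of the 30 genes.

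The 5 membrane proteins as deposited all had a log2 fold change just below 0, from -0.0931 to -0.0198, and none passed the test. With library sums equalised they split 3 above and 2 below. Values are given in the order of replicates 1, 2 and 3 of each group, and positions on GRCm38. Lamp2 (chromosome X, 38399647 to 38456460), the gene of the autophagy receptor, had wild-type values of 370.0, 345 and 284 FPKM against knockout values of 325, 310.0 and 333 FPKM. The wild-type values bracket all 3 knockout values, which lie close together. Its means were 333 ± 44.3 FPKM (wild-type) and 323 ± 11.6 FPKM (knockout), where ± gives the SD over 3 samples here and throughout, with a log2 fold change of -0.0365 with a 95% interval of -0.30 to 0.23 (limma adjusted p = 0.998; exact permutation p = 0.8). The sign of this value turned with the scaling, to 0.0082 once the library sums were made equal and 0.0201 once the medians were. It ran from -0.15 to 0.0442 over the fits without 1 library and was -0.12 without both outlying libraries, with the low end reached without wild-type replicate 3 and the high end without wild-type replicate 1. A difference in Lamp2 RNA was not detectable with these 6 samples.

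Lamp1 (chromosome 8, 13159161 to 13175338), the companion glycoprotein that lines the lysosomal membrane, had wild-type values of 539.7, 494 and 466 FPKM against knockout values of 457, 484 and 468 FPKM. The lowest wild-type value lies within the range of the knockout values, and the log2 fold change was -0.0885 (-0.30 to 0.13). This ran from -0.14 to -0.0322 over the fits without 1 library and was -0.16 without both outlying libraries. Cd63 (chromosome 10, 128896231 to 128912822), a tetraspanin of late endosomes, lysosomes and exosomes, had wild-type values of 677, 753 and 837 FPKM against knockout values of 714, 801 and 613 FPKM. The spread within each group exceeds the distance between the means of Cd63, whose log2 fold change was -0.0931 (-0.39 to 0.21). It was 0.0077 without knockout replicate 3 and -0.18 without knockout replicate 2. Scarb2, which escorts glucocerebrosidase to the lysosome, had 11.1 ± 0.755 FPKM (wild-type) and 11.0 ± 0.432 FPKM (knockout), and Mcoln1, the calcium channel that signals to TFEB, had 23.3 ± 0.455 FPKM (wild-type) and 22.6 ± 1.93 FPKM (knockout). Their log2 fold changes were -0.0198 and -0.0427, and both turned above 0 with library sums equalised (0.0224 and 0.0002).

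Among the 9 peptidases 8 had a log2 fold change below 0 and Ctsd one above, with a group median of -0.0752 and none past the test. They split 2 above and 7 below with library sums, 4 above and 5 below with library medians and 1 above and 8 below with quantiles equalised. Ctsd (chromosome 7, 142375910 to 142387827), the main aspartic protease of the organelle, had wild-type values of 283, 257 and 231 FPKM against knockout values of 257, 259 and 265 FPKM. Its knockout values lie inside the wild-type range, and the log2 fold change of 0.0222 became -0.0514 without wild-type replicate 3 and 0.0932 without wild-type replicate 1. Lgmn (chromosome 12, 102394082 to 102439728), the asparaginyl endopeptidase that processes cathepsins and is abundant in proximal tubule, had wild-type values of 319, 283 and 247 FPKM against knockout values of 303, 239 and 254 FPKM. Replicate 1 was the highest of each group, the groups overlapped, and the log2 fold change was -0.0915 (-0.39 to 0.21). Leaving out replicate 1 of the wild-type gave -0.0012, and leaving out that of the knockout gave -0.19.

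Ctsz (chromosome 2, 174427494 to 174439039), a carboxypeptidase also found in macrophages, had the lowest fold change of the peptidases, -0.17 (-0.42 to 0.0687). It had wild-type values of 84.2, 81.2 and 89.0 FPKM against knockout values of 78.3, 82.3 and 65.6 FPKM. Knockout replicate 3 was the lowest of all, knockout replicate 2 lay within the wild-type range, and the limma adjusted p was 0.995. Without knockout replicate 3 the log2 fold change was -0.0777. Ctsl, a cysteine protease of broad use, had 163 ± 3.41 FPKM (wild-type) and 150.3 ± 11.6 FPKM (knockout) and a log2 fold change of -0.12. Ctsa, the protective protein that stabilises neuraminidase and beta-galactosidase, had 99.3 ± 2.30 FPKM (wild-type) and 93.5 ± 7.68 FPKM (knockout) and -0.0892. For both, knockout replicate 3 was again the lowest of the 6 libraries.

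The remaining peptidases lay closer to 0. Ctsb, a cysteine protease, had 134 ± 1.95 FPKM (wild-type) and 129 ± 7.43 FPKM (knockout) (-0.0498 on the log2 scale). Ctsh, an aminopeptidase, had 122 ± 7.66 FPKM (wild-type) and 118 ± 6.86 FPKM (knockout) (-0.0462). Tpp1, the tripeptidyl peptidase lost in a form of Batten disease, had 64.0 ± 3.85 FPKM (wild-type) and 63.0 ± 1.55 FPKM (knockout) (-0.0198). Ctsc, the dipeptidyl peptidase that activates granule proteases of immune cells, was the scarcest peptidase, with 3.30 ± 0.121 FPKM (wild-type) and 3.09 ± 0.265 FPKM (knockout) and a log2 fold change of -0.0752. Sample values of each of these overlapped between the groups. Ctsa, Ctsb and Ctsz are crossed in the annotation by other expressed genes, as are Glb1 and Asah1, and fragments in the shared stretches could have been counted to either gene.

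The 8 glycosidases divided evenly, 4 above 0 and 4 below (5 above and 3 below with library sums equalised), with a median log2 fold change of -0.0096. Gaa (chromosome 11, 119267963 to 119285458), the acid alpha-glucosidase that degrades glycogen, had wild-type values of 26.8, 26.8 and 28.9 FPKM against knockout values of 26.7, 25.2 and 24.1 FPKM. All 3 knockout values lie below the wild-type values, by a gap far smaller than the spread within either group, and the log2 fold change was -0.12 (-0.31 to 0.075; limma adjusted p = 0.998; exact permutation p = 0.1, the smallest possible). Hexa (chromosome 9, 59539540 to 59565109), the alpha subunit of beta-hexosaminidase A, had the lowest fold change of all members, -0.18 (-0.43 to 0.0646; limma adjusted p = 0.995). It had wild-type values of 24.2, 23.3 and 20.8 FPKM against knockout values of 22.2, 20.1 and 17.5 FPKM. The groups overlap through wild-type replicate 3 and knockout replicate 1, and the value ran from -0.26 to -0.10 over the fits without 1 library and was -0.26 without both outlying libraries.

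Gusb (chromosome 5, 129989011 to 130003049), beta-glucuronidase, had the highest fold change of the members and one of the widest spreads. It had wild-type values of 22.1, 15.8 and 13.3 FPKM against knockout values of 17.9, 19.0 and 20.8 FPKM. The wild-type values run from the lowest to the highest of all 6, with the knockout values between them. The log2 fold change of 0.19 (-0.19 to 0.57; limma adjusted p = 0.998) became 0.0387, 0.39 and 0.15 when wild-type replicates 3, 1 and 2 were left out in turn, and 0.0458 without both outlying libraries. Gla (chromosome X, 134588169 to 134601005), the alpha-galactosidase A that is lost in Fabry disease, had wild-type values of 1.65, 1.42 and 1.71 FPKM against knockout values of 1.98, 1.83 and 1.67 FPKM. It was the other member with an estimate above 0.1 among the glycosidases, 0.12 (-0.10 to 0.35), with overlapping groups at a low level.

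The 4 remaining glycosidases differed little. Neu1, the sialidase, had 106 ± 3.05 FPKM (wild-type) and 107 ± 9.35 FPKM (knockout), and Glb1, beta-galactosidase, 68.7 ± 1.86 FPKM (wild-type) and 70.5 ± 4.36 FPKM (knockout). Man2b1, the lysosomal alpha-mannosidase, had 42.5 ± 2.41 FPKM (wild-type) and 40.7 ± 1.17 FPKM (knockout), and Naglu, which degrades heparan sulfate, 16.4 ± 1.05 FPKM (wild-type) and 16.0 ± 0.855 FPKM (knockout). The log2 fold changes were 0.0069, 0.0338, -0.0622 and -0.0262 in that order, and each was smaller than the range within a group.

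Among the 5 lipid hydrolases and activator proteins 3 lay above 0 and 2 below (4 above and 1 below with library sums and 2 above and 3 below with quantiles equalised), with a median of 0.0227. Lipa (chromosome 19, 34492316 to 34527474), the acid lipase that frees cholesterol and fatty acids from lipoproteins taken up into the lysosome, varied most of all 30 genes. It had wild-type values of 75.2, 62.4 and 40.7 FPKM against knockout values of 74.8, 51.8 and 71.7 FPKM. Wild-type replicate 3 was the lowest and knockout replicate 2 the next, while the other 4 samples lay between 62.4 and 75.2 FPKM. The highest value was 1.85 times the lowest, and the log2 fold change was 0.18 (-0.35 to 0.70; limma adjusted p = 0.998). It turned to -0.0687 without wild-type replicate 3, was 0.37 without wild-type replicate 1 and was 0.10 without both low samples. Wild-type replicate 3 and knockout replicate 2 are the libraries called outlying above, whose deviations from their group means correlated at 0.55 over all tested genes. The 10 proximal tubule markers were also lowest on average in these libraries, with a mean deviation from the 6 libraries of 0.11, 0.041 and -0.10 for the wild-type and 0.0768, -0.12 and 0.0006 for the knockout samples on the log2 scale, and without Kap, which held 86.4% to 90.3% of their summed FPKM, they summed to 4941, 4876 and 4547 FPKM over the wild-type and 5049, 4754 and 4808 FPKM over the knockout samples. With Kap the sum was highest in these libraries, 46830.0 and 46900.0 FPKM. The part of either in the Lipa values was not tested.

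Psap (chromosome 10, 60277628 to 60302600), the precursor of the saposins that present sphingolipids to their hydrolases, was the second most abundant member. It had wild-type values of 575, 549 and 494 FPKM against knockout values of 502, 549 and 594 FPKM. The groups overlapped and the log2 fold change was 0.0227 (-0.22 to 0.27). This ran from -0.0386 to 0.0849 over the fits without 1 library and was -0.0412 without both outlying libraries. Asah1 (chromosome 8, 41340646 to 41397644), acid ceramidase, had wild-type values of 46.5, 45.2 and 42.9 FPKM against knockout values of 38.0, 45.9 and 37.1 FPKM. Knockout replicates 1 and 3 were lower than every wild-type sample and knockout replicate 2 was not, and the log2 fold change was -0.16 (-0.39 to 0.08; limma adjusted p = 0.998). This ran from -0.25 to -0.10 over the fits without 1 library and was -0.28 without both outlying libraries. Smpd1, acid sphingomyelinase, had 39.9 ± 3.76 FPKM (wild-type) and 41.3 ± 2.00 FPKM (knockout) (0.051), and Gm2a, the activator of ganglioside GM2 breakdown, 61.6 ± 2.38 FPKM (wild-type) and 60.1 ± 3.26 FPKM (knockout) (-0.036).

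Progranulin and both transcription factors had log2 fold changes below 0 that did not pass the test. Grn (chromosome 11, 102430507 to 102436809), whose product is cut into granulins in the lysosome, had wild-type values of 67.4, 67.4 and 68.5 FPKM against knockout values of 61.6, 70.7 and 56.2 FPKM. The wild-type samples lay close together and the knockout samples spread on both sides of them, with a log2 fold change of -0.11 (-0.34 to 0.12). This ran from -0.20 to -0.0378 over the fits without 1 library and was -0.19 without both outlying libraries. Tfeb (chromosome 17, 47737037 to 47792416), a master regulator of lysosomal genes, had wild-type values of 7.48, 8.12 and 9.73 FPKM against knockout values of 7.37, 8.39 and 7.46 FPKM. Wild-type replicate 3 was the highest, the other 5 values lay between 7.37 and 8.39 FPKM, and the log2 fold change was -0.11 (-0.36 to 0.14). It was -0.0111 without wild-type replicate 3 and -0.18 without wild-type replicate 1. Tfe3 (chromosome X, 7762530 to 7775202), its relative of the MiT/TFE family, had wild-type values of 8.24, 7.81 and 7.90 FPKM against knockout values of 7.40, 7.45 and 7.72 FPKM. Its knockout values all lay below its wild-type values by a narrow gap, with a log2 fold change of -0.076 (-0.25 to 0.10; limma adjusted p = 0.998; exact permutation p = 0.1). RNA levels of these factors do not show their activity, which is set largely by where the protein is in the cell.

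Members with and without the TCACGTG motif printed above are set side by side here, with no test. The 9 members with it had a median log2 fold change of -0.0427, 3 above 0 and 6 below, from -0.12 to 0.12. The 18 with a window and no such motif had a median of -0.0493, 5 above and 13 below, from -0.18 to 0.19. Both medians lie close to that of all tested genes, -0.0399.

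Single libraries of the same genotype differed in their average level of the 30 genes. Averaged over the 30 genes, the deviation from the mean of the 6 libraries was 0.0796, 0.0185 and -0.0387 for the wild-type and -0.0096, 0.0071 and -0.057 for the knockout samples on the log2 scale. Wild-type replicates 1 and 3 thus lay farther apart than the group means. Single libraries spread more than means of libraries, so this does not compare variation between libraries with that between genotypes. Of the 30 genes 14 were highest of all 6 in wild-type replicate 1 (28.2% of all tested genes were), and 0 were lowest there (8.04% of all tested genes were). With library sums equalised 9 were highest and 1 lowest there, as were 20.7% and 13.1% of all tested genes. Within the wild-type group 18 of 30 were lowest in replicate 3, as were 39.9% of all tested genes. The lipid hydrolases ran at 0.13, -0.001 and -0.15 for the wild-type and -0.0177, 0.0021 and 0.0334 for the knockout samples, and Lipa carried much of this, since the other 4 ran at 0.0944, -0.0075 and -0.0428 for the wild-type and -0.0927, 0.0623 and -0.0137 for the knockout samples. Knockout replicate 3, the library with the smallest FPKM sum, was the lowest of all 6 for 11 members as deposited and for 6 with library sums equalised, close to the 33.4% and 19.5% of all tested genes.

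**Figure D3:**
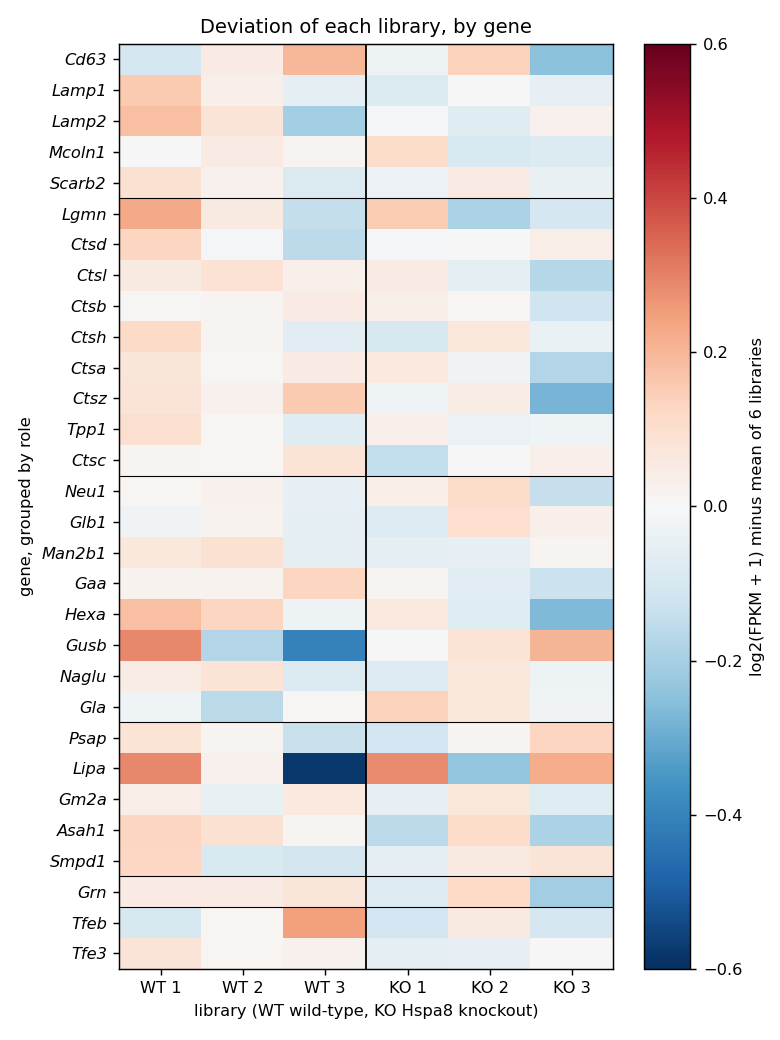
Deviation of log2(FPKM + 1) from the mean of the 6 libraries (colour) for each gene (rows, grouped by role) in each library (columns, WT wild-type, KO Hspa8 knockout). Lipa and Gusb are lowest in wild-type replicate 3, Cd63 and Tfeb are highest there, and the 2 groups separate for Gaa and Tfe3 alone.

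The members whose values followed Lamp2 most closely over the 6 libraries were Ctsd (Pearson r = 0.92), Tpp1 (0.89), Lipa (0.85) and Man2b1 (0.81), each low in wild-type replicate 3. Tfeb (-0.80) and Cd63 (-0.68) ran the other way, high in that library. These correlations describe 6 libraries that share their scaling, among 29 members compared, and have no test.

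Other genes of the lysosome also gave no call. In 7 further lists of 132 genes, 131 were tested, 0 passed in either direction, 56 estimates were above 0 and 75 below, and the median was -0.0209. At an unadjusted p under 0.05, 2 of the 131 were lower, Ctsk and Tfec, and 0 higher, against 4.21% and 0.953% of all tested genes. The groups did not overlap for 9 lower genes and 1 higher, against the background of 8.57% and 2.01% of all tested genes. Of 34 other luminal proteins 21 were above 0 and 13 below, or 26 above and 8 below with library sums equalised (median as deposited 0.0177). Ctsk, the cathepsin of bone-resorbing and matrix cells, had 2.21 ± 0.395 FPKM (wild-type) and 1.52 ± 0.403 FPKM (knockout) and a log2 fold change of -0.35 (limma adjusted p = 0.961). Aga, which cleaves the sugar-asparagine bond of glycoproteins, had 19.5 ± 1.53 FPKM (wild-type) and 21.7 ± 0.969 FPKM (knockout), and Ctss, a cathepsin of antigen-presenting cells, 8.69 ± 1.58 FPKM (wild-type) and 7.31 ± 1.23 FPKM (knockout). Neither of these passed.

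Of 27 other membrane proteins 8 were above 0 and 19 below, or 12 above and 15 below with library sums equalised (median as deposited -0.0788). Ctns, the cystine exporter lost in cystinosis, had 10.8 ± 0.693 FPKM (wild-type) and 9.48 ± 0.419 FPKM (knockout), and Slc15a4, a peptide and histidine transporter, 6.04 ± 0.219 FPKM (wild-type) and 5.21 ± 0.369 FPKM (knockout). Mfsd8, a transporter of the lysosomal membrane, had 3.00 ± 0.0431 FPKM (wild-type) and 2.59 ± 0.226 FPKM (knockout). The knockout values of these 3 all lay below the wild-type values, with limma adjusted p = 0.973 for each of them. In this list 4 of 27 genes, Tpcn2 being the other, were separated in this way, beside 8.57% of all tested genes. The 17 subunits of the proton pump used in most cells had a median of -0.0209 (7 above 0 and 10 below, or 12 above and 5 below with library sums equalised). Atp6v1d, a subunit of the rotor, had 60.4 ± 1.79 FPKM (wild-type) and 66.2 ± 2.92 FPKM (knockout) (limma adjusted p = 0.995). Of the 17 it alone had groups that did not overlap, higher in the knockout, as had 2.01% of all tested genes. The 5 subunit forms known from intercalated cells had a median of -0.0564, and the largest of their differences was Atp6v1c2, -0.15 on the log2 scale.

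The 14 genes that tag and sort lysosomal enzymes had 5 above 0 and 9 below (median -0.0614). Gga3, an adaptor of mannose 6-phosphate receptors, had 7.24 ± 1.19 FPKM (wild-type) and 5.88 ± 0.511 FPKM (knockout) and a log2 fold change of -0.25 (limma adjusted p = 0.973). Genes of fusion and positioning had 5 above and 10 below, or 6 above and 9 below with library sums and 10 above and 5 below with library medians equalised (median as deposited -0.0454), with Plekhm1, an adaptor of lysosome fusion, at 7.40 ± 0.470 FPKM (wild-type) and 6.68 ± 0.339 FPKM (knockout). The MiT/TFE relatives and the mTORC1 machinery on the lysosome had 9 above and 10 below, or 12 above and 7 below with library sums equalised (median as deposited -0.0043). Tfec, a further MiT/TFE factor, had wild-type values of 7.80, 6.85 and 6.89 FPKM against knockout values of 5.73, 6.32 and 5.25 FPKM. Its groups did not overlap, and its log2 fold change of -0.27 had a limma adjusted p of 0.942. Flcn, which controls access of TFEB to mTORC1, had 15.5 ± 1.33 FPKM (wild-type) and 13.6 ± 1.65 FPKM (knockout), with overlapping groups.

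Chaperone-mediated autophagy was followed by 13 genes, of which 12 were tested. As deposited, all 12 lay below 0 (median -0.0726), as did 64.9% of all tested genes. The limma test passed 0 of them. At an unadjusted p under 0.05, 2 were lower, Hspa8 and Dnajb1, as were 4.21% of all tested genes. With library sums equalised the 12 split 3 above and 9 below. The list holds the deleted gene and its co-chaperones. The knockout values lay below all wild-type values in 3 of the 12, Hspa8, Dnajb1 and Stip1, against 8.57% of all tested genes. Dnajb1 and Stip1 encode co-chaperones of HSC70. Dnajb1 had wild-type values of 21.0, 19.9 and 43.5 FPKM against knockout values of 10.1, 15.3 and 15.5 FPKM. Its log2 fold change was -0.93 (limma adjusted p = 0.914). Stip1 had wild-type values of 44.7, 43.0 and 58.6 FPKM against knockout values of 38.9, 40.9 and 42.4 FPKM. Its log2 fold change was -0.24 (limma adjusted p = 0.973). Both were highest in wild-type replicate 3. Eef1a1, an elongation factor that also acts at the receptor complex, had 2036 ± 128 FPKM (wild-type) and 1972 ± 75.8 FPKM (knockout) and a log2 fold change of -0.0447. Gfap, which steadies that complex, was below the filter in kidney, at 0.0284 to 0.0789 FPKM.

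Marker genes of other cell types moved between the libraries by more than the lysosome genes did. In bulk tissue fewer cells of a type and less RNA per cell cannot be told apart. The counts below 0 stand beside 64.9% of all tested genes below 0 as deposited, with a median of -0.0399. The 14 macrophage markers, cells rich in lysosomes, summed to 75.2 to 97.8 FPKM over the wild-type and 59.4 to 106 FPKM over the knockout samples, with 9 of the 11 tested below 0 (median -0.0793) and none at 0 in any library. Their mean deviation was -0.0008, -0.0708 and 0.23 for the wild-type and -0.15, 0.34 and -0.35 for the knockout samples, high in knockout replicate 2 and low in knockout replicate 3. Among the knockout samples 7 of the 30 lysosome genes were likewise highest in replicate 2 and lowest in replicate 3 (Cd63, Scarb2, Ctsz, Neu1, Asah1, Gm2a and Grn), as were 32.6% of all tested genes. Endothelial markers had 10 of 10 below 0 (median -0.36), summing to 152 to 207 FPKM over the wild-type and 113 to 148 FPKM over the knockout samples, and were highest in wild-type replicate 3. Red cell markers summed to 43.3 to 53.4 FPKM over the wild-type samples and to 413, 69.4 and 546 FPKM in knockout replicates 1, 2 and 3. Of the fibroblast markers 6 of 6 tested were below 0 (median -0.33), and of the adipocyte markers 3 of 3 tested (median -0.45). Among the latter, Cfd had wild-type values of 1.27, 2.25 and 15.1 FPKM, highest in replicate 3, against knockout values of 2.64, 1.395 and 3.79 FPKM. The 3 had a mean deviation of -0.28, -0.075 and 1.04 for the wild-type and -0.24, -0.32 and -0.13 for the knockout samples. The groups did not overlap for 1 of the 3, lower in the knockout. Of the red cell markers 4 of 4 tested were above 0 (median 2.29). The markers of endothelium, fibroblasts and adipocytes kept their side of 0 under all 3 scalings, as did those of red cells. Rescaling does not show how far a list rests on 1 library. The part of these cells in the values of the lysosome genes was not tested.

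**Figure D4:**
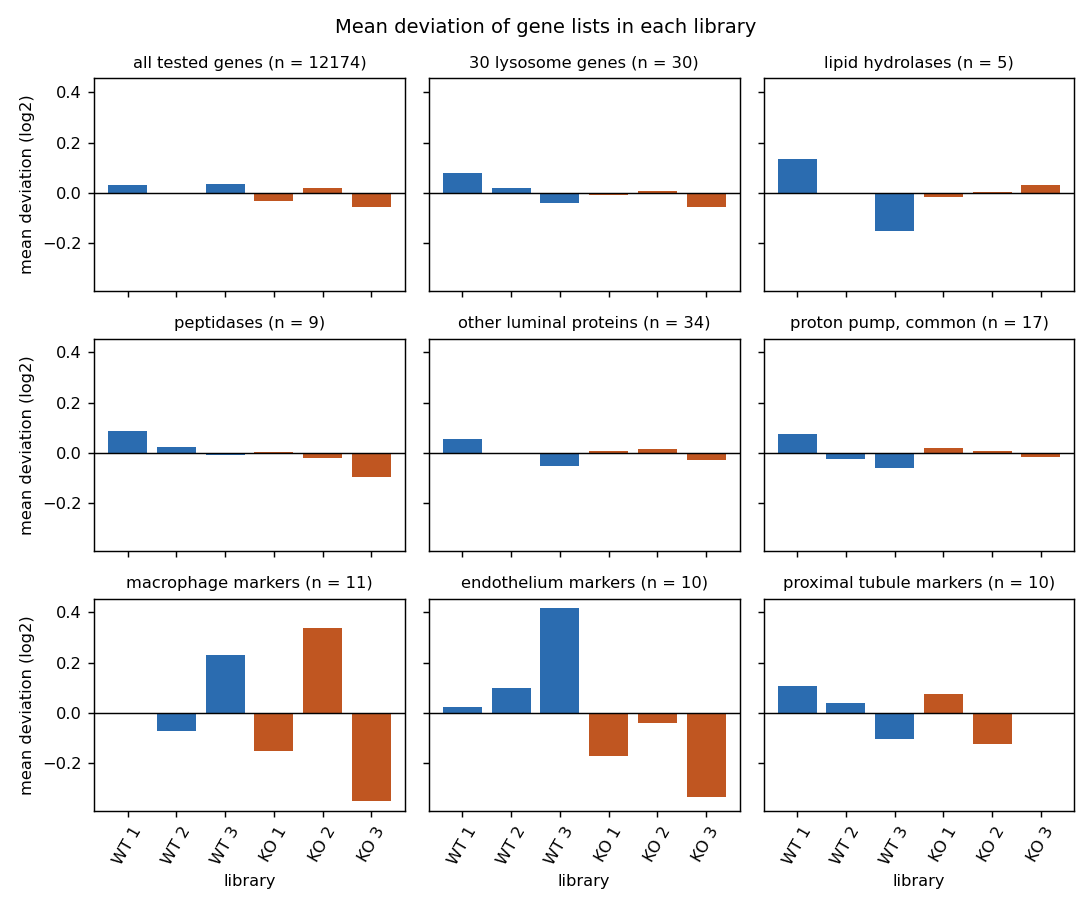
Mean deviation of log2(FPKM + 1) from the mean of the 6 libraries (y axis) for 9 gene lists in each library (x axis, WT wild-type, KO Hspa8 knockout), as bars that are means over the tested genes of a list with no error shown. The 30 lysosome genes run from -0.057 to 0.0796, the macrophage markers from -0.35 to 0.34.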

How the data were processed

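The deposited data are FPKM values of each gene, in a single table by the authors, for 6 mouse kidney libraries, made per the labels from total RNA (Rneasy kit) with a SMARTer library kit. GRCm38 and mm10, names of 1 assembly, are the builds in the submitters' processing notes. The aligner, quantifier and annotation were not given in the sources used here. FPKM hold no read totals, so depth is unknown. Columns were matched to samples by their titles, the A8 columns to the HSPA8KO titles. No pair of libraries shared an identical value above 0. All 34714 symbols matched RefSeq GRCm38.p6, which gave the coordinates (1-based, whole gene).

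The test was limma 3.58.1 (R 4.3.3) on log2(FPKM + 1), group as the only term, a variance trend, two-sided, with Benjamini-Hochberg adjustment over the 12174 genes with a mean of at least 1 FPKM. The fit was checked on simulated data. Single genes also had an exact permutation test (scipy 1.17.1). Fold changes on this scale understate the change of low genes. The members and lists were chosen with earlier results of these data known, so lists are described by counts and medians and have no test. The rule for named genes took all 30 members, Hspa8 and up to 3 genes with the smallest p of each other list. Outside this rule, Eef1a1, Gfap, Umod, Tpcn2, Kap and Cfd were named after their values were seen. Alternatives were a pseudocount of 0.1, no filter, a mean of at least 5 FPKM, sums, medians or quantiles equalised, a robust and a trend-free variance, the replicate number as a block, and leaving out libraries. Figures used matplotlib 3.10.9.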

Additional observations from a re-analysis of the deposited data

How the results depend on the processing

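No member passed under any of the 16 alternatives, and the smallest adjusted p of a member over all of them was 0.668. Of 478 member values under an alternative 440 kept the sign of the value reported above and 38 did not, in 15 of the 30 members, and the other 15 kept 1 sign throughout. Over all genes limma called 0 as reported and 5 genes higher, all of them globin genes, without knockout replicate 2 or without that library and wild-type replicate 3 together, with 0 to 5 over the libraries left out in turn. The members above 0 numbered 8 as reported, 14 with library sums equalised, 16 with medians equalised, and 3 to 12 with 1 library, or with wild-type replicate 3 and knockout replicate 2, left out, the 3 coming without both of these. Those below 0 numbered 14 with medians equalised. The median over the members was 0.0083 with medians equalised and -0.0771 to -0.0281 over the same libraries left out. Values that turned sign, none of them past the test, were Lamp2 0.0201, Scarb2 0.0322, Mcoln1 0.0117, Ctsb 0.0065, Ctsh 0.0101, Tpp1 0.0361, Naglu 0.0272 and Gm2a 0.0199 with library medians equalised, Lamp2 0.0082, Scarb2 0.0224, Mcoln1 0.0002, Tpp1 0.0246, Naglu 0.0166 and Gm2a 0.0082 with library sums equalised, and Lamp2 0.006, Scarb2 0.0278, Naglu 0.0065 and Psap -0.0062 with quantiles equalised. With 1 library left out, or with wild-type replicate 3 and knockout replicate 2 both left out, the ranges of the members that turned sign were -0.15 to 0.0442 for Lamp2, -0.18 to 0.0077 for Cd63, -0.10 to 0.0211 for Scarb2, -0.0514 to 0.0932 for Ctsd, -0.13 to 0.0004 for Ctsh, -0.0612 to 0.0241 for Tpp1, -0.0254 to 0.0809 for Glb1, -0.12 to 0.0081 for Naglu, -0.0691 to 0.0781 for Neu1, -0.0412 to 0.0849 for Psap, -0.0045 to 0.13 for Smpd1 and -0.0687 to 0.37 for Lipa. The groups share replicate numbers, and no label says that these mark pairs. Deviations from the group means correlated at 0.31, -0.21 and -0.32 for numbers 1, 2 and 3 over 12174 genes. Not every sample correlated best with its own number. This cannot decide whether the numbers mark pairs, because the deviations within a group of 3 depend on each other. With the replicate number as a block limma called 0 genes and 0 members, with a member median of -0.048, and it left 417 genes at an unadjusted p under 0.05 against 629 without the block. As FPKM carry no depth, the precision of low genes such as Gla and Ctsc cannot be stated, and 3 samples a group limit every interval.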
